A study of Mus musculus with 13 samples.

Results

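Conventional natural killer cells (cNK) from mice labelled CD8KO were compared with cNK from wild type mice (WT), gene by gene. The cell type and genotype labels placed 6 of the series' 13 RNA-seq libraries in this comparison, 3 labelled CD8KO and 3 labelled WT. The cNK came from splenocytes per the labels, were sorted by flow cytometry, and came from C57BL/6J mice aged 8 to 10 weeks in both groups. The CD8KO genotype is written as CD8-/- in the design text. The labels do not say which CD8 gene was targeted, how the allele was made, the sex of the mice, or whether each library came from its own animal. The p-values below therefore measure the spread between these libraries, part of which may be technical.

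NK cells are lymphocytes that kill stressed, infected or transformed cells without rearranged antigen receptors. Conventional NK cells circulate between blood, spleen and other organs, carry granzymes and perforin, release chemokines and interferon gamma within hours of stimulation, and read MHC class I on their targets through Ly49 receptors and other lectins. CD8 is the coreceptor of cytotoxic T cells and is built from an alpha chain (Cd8a) and a beta chain (Cd8b1). The title of the series concerns CD8+ T cells, CD70 and CD27 in the maturation of liver-resident NK cells. The cNK libraries ask how the transcripts of circulating NK cells differ where the label says that CD8 is missing.

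The deposited values were read counts per gene, 48600875 to 72716020 in total per library, with 22250 to 22778 genes detected in each. Levels below are CPM, counts scaled to the library's total over the tested genes, adjusted by a TMM scaling factor of 0.9811 to 1.0104. They are not divided by gene length. Changes are log2 of CD8KO over WT with the standard error after ±. Genes with an adjusted p below 0.05 count as called. The first principal component carried 29.3% of the variance and placed the WT libraries at -26.9, -26.4 and -12.1 and the CD8KO libraries at 9.9, 27.7 and 27.8. CD8KO library 1 stood apart on the second component, which carried 21.9%, at 39.2. The biological coefficient of variation was 9.6%.

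Cd8a, the targeted family's alpha chain gene (ENSMUSG00000053977, GRCm38, chr6:71373427-71379173, plus strand), was higher in the libraries labelled CD8KO. Its level was 0.5674, 0.589 and 0.5551 CPM in the WT libraries and 88.05, 85.55 and 108.1 CPM in the CD8KO libraries. The groups lay far apart, with a log2 change of 7.35 ± 0.12 (adjusted p = 9.443e-15). Because a gene's count does not locate its reads within the transcript, the direction checks neither the deletion nor the label. Cd8b1, the beta chain gene, had 4, 0 and 4 counts in WT and 6, 5 and 16 in CD8KO, too few to be tested. The noncoding genes Gm44174 and Gm44175, annotated between Cd8b1 and Cd8a, rose as well. Gm44174 went from 0.01455, 0.1122 and 0.037 CPM to 4.75, 3.488 and 5.225 CPM (log2 change 6.26 ± 0.39, adjusted p = 3.137e-07). It lies on the strand of Cd8a and ends 143 bases before it. Gm44175, on the opposite strand, rose by 6.55 ± 0.29 (adjusted p = 3.694e-09). Reads of neighbouring or antisense genes cannot be told apart here, since the strand setting of the counting is not given in the sources used here.

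The CD8KO libraries differed from each other in genes of the sex chromosomes. Xist, the RNA that coats the inactive X chromosome in female cells, was at 0.0291, 0.2524 and 0.296 CPM in WT and at 0.2489, 263.9 and 806.9 CPM in CD8KO. CD8KO library 1 was inside the WT range and libraries 2 and 3 were far above it. Ddx3y, a Y-linked helicase gene, was at 137.5, 117 and 141.2 CPM in WT and at 102.8, 60.25 and 3.097 CPM in CD8KO. Kdm5d, Eif2s3y and Uty, further Y-linked genes, followed the same order, lowest in library 3 and intermediate in library 2. CD8KO libraries 2 and 3 thus differed from the remaining ones in Xist and Y-linked RNA. No WT library showed this, so it comes on top of the difference in genotype. Between groups Xist was called (adjusted p = 0.005006), while Ddx3y, Kdm5d, Eif2s3y and Uty were not (adjusted p from 0.3962 to 0.573). The part of this difference in the results below was not tested beyond 1 check. In that check CD8KO library 1 alone was set against WT, with the lone library assumed to vary as the WT libraries do. Of the 78 named genes that were called, 25 were still called. CD8KO library 1 was also part of the fit that called them, so it is no independent sample of their direction.

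**Figure D1:**
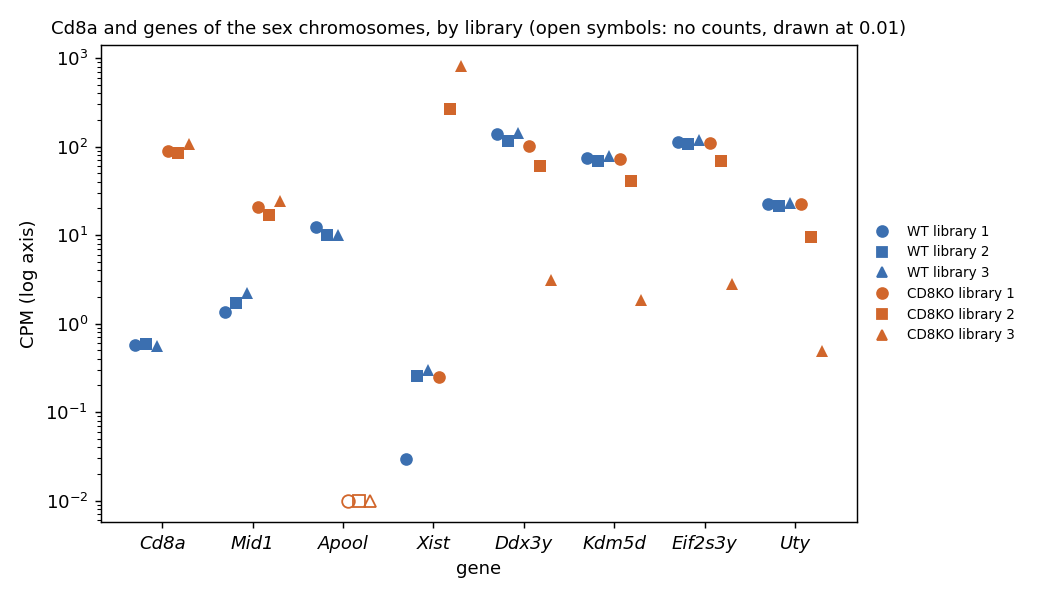
CPM on a log axis of Cd8a, Mid1, Apool, Xist and 4 Y-linked genes in each library, with WT in blue and CD8KO in orange and 1 symbol per library. Cd8a, Mid1 and Apool separate the genotypes in all 6 libraries, whereas Xist and the Y-linked genes separate CD8KO libraries 2 and 3 from the remaining ones; open symbols mark libraries without counts.

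The libraries of both groups carried the RNA of NK cells. Of 16 NK identity markers, all tested, 15 were not called and 1 rose. Ncr1, the receptor NKp46, was at 1260, 1197 and 1226 CPM in WT and at 1306, 1242 and 1311 CPM in CD8KO. Eomes, the transcription factor of conventional NK cells, was at 639.1, 683.3 and 657.7 CPM in WT and at 708.3, 687.4 and 696.5 CPM in CD8KO (adjusted p = 0.4479). Fcgr3, the low-affinity Fc receptor of NK cells, was the marker that rose (log2 change 0.24 ± 0.05, adjusted p = 0.04457), and it lost its call in 5 of the 6 fits that left out 1 library.

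Markers of other cells were compared by their summed levels and by gene. The summed level of the T cell markers was 900.2, 874.4 and 907.2 CPM in WT and 916.9, 931.2 and 905.2 CPM in CD8KO. Of the 20 tested, Cd3g and Cd3d rose, and Cd3e was not called (log2 change 0.47 ± 0.15, adjusted p = 0.1934). The B cell markers summed to 326.1, 274.7 and 298.8 CPM in WT and to 309.9, 332.4 and 323.9 CPM in CD8KO, with 1 of 21 called higher, 1 lower and a median log2 change of 0.35. Of these 21, 16 had a log2 change above 0 and 10 an unadjusted p under 0.05, against 2140 of all 16619 genes tested. The part of the B cell markers in the results below was not tested. Ighm, the heavy chain constant region of IgM, rose from 171.3, 168.2 and 173.6 CPM to 208.2, 218.9 and 210 CPM (log2 change 0.31 ± 0.05, adjusted p = 0.002642). The B cell receptor gene Cd79a was below 3 CPM in all 6 libraries and was not called. Cd74, the invariant chain of MHC class II, fell by 0.47 ± 0.11 (adjusted p = 0.04693), a call lost with DESeq2 and in 5 of the 6 fits that left out 1 library. No marker of plasma cells, macrophages, dendritic cells, erythroid cells, platelets, endothelium or mast cells was called, and of 7 neutrophil and monocyte markers tested Ly6c2 fell. The neutrophil genes S100a8 and S100a9 had at most 16 counts in any library.

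Of 16619 genes tested, 83 were higher in CD8KO (0.499%) and 135 were lower (0.812%), so that 218 were called in either direction (1.31%). The WT and CD8KO libraries did not overlap for 2959 genes (17.8%), and 2140 genes had an unadjusted p under 0.05. Among called genes, 82 of the 83 higher and 133 of the 135 lower ones did not overlap. For a called gene, the lack of overlap therefore adds little to the call. Changes were mostly small, with 18 of the higher and 15 of the lower genes reaching a fold of 2 and a median of 0.48 and -0.48 on the log2 scale. The median over all genes was -0.002, with quartiles of -0.11 and 0.11. The counts of called genes fell to 31 and 59 without WT library 1 and to 25 and 46 without CD8KO library 2. In all 6 fits that left out 1 library, 21 higher and 45 lower genes remained called.

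**Figure D2:**
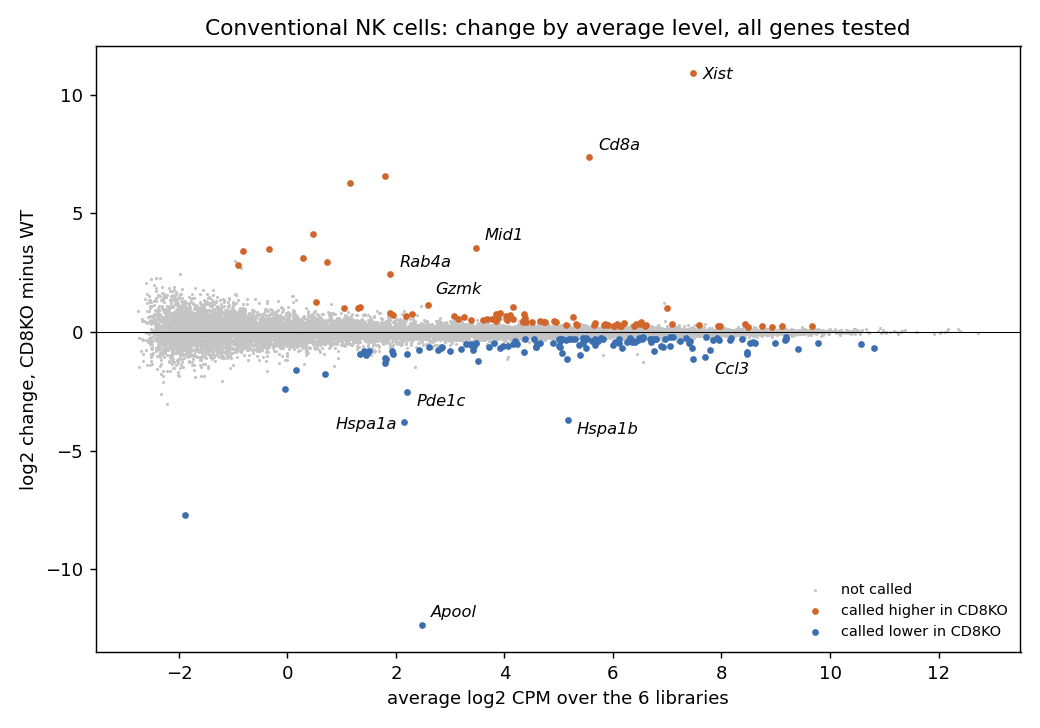
Log2 change of CD8KO over WT against the average log2 CPM over the 6 libraries for all 16619 genes tested, with the 83 genes called higher in orange and the 135 called lower in blue. Most called genes lie within 1 log2 unit of 0; Xist, Cd8a and Mid1 stand above and Apool, Hspa1a, Hspa1b and Pde1c below, and the fitted value of Apool, without counts in CD8KO, depends on the prior count.

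Among the lists with at least 5 tested genes, heat-shock chaperones had the highest share called, 50%. Chaperones fold and refold proteins, and many are induced by the factor HSF1 when cells are warmed, handled or otherwise stressed. Of 38 tested, 19 fell, none rose and 36 had a log2 change below 0 (median -0.36). Those that fell included the inducible Hsp70 genes, the constitutive Hsp70 gene Hspa8, both cytosolic Hsp90 genes, the nucleotide exchange factor Hsph1 and 5 DnaJ cochaperones. The mitochondrial chaperonin Hspd1 and the endoplasmic reticulum chaperone Hspa5 fell too, by 0.48 ± 0.08 and 0.22 ± 0.05, and were called in 4 and 3 of the 6 fits that left out 1 library. The remaining 19 were not called.

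HSF1 binds heat-shock elements, which are built from inverted repeats of a short motif. Such letters, GAANNTTC and TTCNNGAA, each its own reverse complement, were searched in the 250 bases before the start in RefSeq (GRCm38.p6). A window was found for 16 of the 19 chaperones that fell, and 6 of these 16 held a motif (37.5%), against 4 of 16 that were tested and not called (25%) and 14.5% of all 27025 genes with a window. The share of single windows with a motif was 12.8%. These shares count some stretches more than once. Hspa1a and Hspa1b hold the same stretch, and that of Hspd1 is also that of Hspe1, which was not called. A match is only a match of letters. The stretches below are those of the chaperones that fell, 5′ to 3′ on the gene's strand with the motif in capitals and 25 bases on either side where the window allows. They are shown so that the matches can be compared between the genes that fell most and those that fell less.
Hspa1b: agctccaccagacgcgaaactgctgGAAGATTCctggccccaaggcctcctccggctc
Hspa1a: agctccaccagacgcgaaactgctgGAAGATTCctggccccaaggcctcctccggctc
Hsph1: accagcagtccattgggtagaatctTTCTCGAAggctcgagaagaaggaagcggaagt
Dnaja1: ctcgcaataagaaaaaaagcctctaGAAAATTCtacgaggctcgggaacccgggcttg
Dnajb4: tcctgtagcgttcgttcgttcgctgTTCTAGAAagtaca
Hspd1: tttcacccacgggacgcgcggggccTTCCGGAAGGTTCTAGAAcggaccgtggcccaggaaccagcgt

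The Hspa1b stretch lies at chr17:34959310-34959367 on the minus strand and the Hspa1a stretch at chr17:34972228-34972285, also on the minus strand. Both are the same letter for letter, and 247 of the 250 bases before the starts of Hspa1a and Hspa1b were identical (98.8%). Each motif begins 104 bases before the start. The Hsph1 stretch is at chr5:149636337-149636394 (minus), that of Dnaja1 at chr4:40722319-40722376 (plus), and that of Dnajb4 at chr3:152193846-152193884 (minus). The Hspd1 stretch, at chr1:55088034-55088101 (minus), holds 3 overlapping motifs and is shared with Hspe1, which is read in the other direction. Hspe1, the partner of Hspd1, was not called (log2 change -0.29 ± 0.10, adjusted p = 0.188).

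Hspa1b (chr17:34956436-34959238), an inducible Hsp70 gene, was at 93.93, 76.4 and 27.86 CPM in WT and at 9.914, 2.937 and 2.803 CPM in CD8KO. All WT libraries were above all CD8KO libraries, with WT library 3 the lowest of its group and CD8KO library 1 the highest of its own. The log2 change was -3.71 ± 0.43 (adjusted p = 0.0003684). Its near copy Hspa1a fell by 3.79 ± 0.50, from 11.71, 9.017 and 3.034 CPM to 1.203, 0.2837 and 0.3114 CPM (adjusted p = 0.000967). The counting could split reads between these near-identical genes, so their separate values are uncertain.

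Hsph1, an Hsp110 protein that recycles Hsp70, fell by 1.14 ± 0.15, from 273, 287.7 and 168.5 CPM to 132.6, 96.73 and 101.9 CPM (adjusted p = 0.001111). Dnaja1, a J-protein that delivers clients to Hsp70, fell by 0.93 ± 0.14, from 517.8, 542.1 and 339 CPM to 285.2, 212 and 239 CPM (adjusted p = 0.002189). Hsp90aa1, the inducible cytosolic Hsp90, fell by 0.83 ± 0.11, from 511.5, 502.4 and 346 CPM to 277.9, 234.7 and 251.2 CPM (adjusted p = 0.0009979). The groups did not overlap for any of these genes, each of which met a naming rule that required this.

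The same order of libraries ran through the list. WT library 3 was the lowest WT library for all 19 genes that fell, yet it was above every CD8KO library for 18 of them. CD8KO library 1 was the highest CD8KO library for 17. Hsp90ab1, the constitutive Hsp90, was the exception to the separation, with 1400 CPM in WT library 3 and 1411 CPM in CD8KO library 1. Summed over all 41 listed chaperones, tested or not, the level was 10110, 10120 and 7599 CPM in WT and 7249, 6209 and 6291 CPM in CD8KO. The count of 19 fell to 8 without WT library 1, to 6 without CD8KO library 2 and to 1 with CD8KO library 1 alone. Hsf1 itself was not called (log2 change -0.08 ± 0.05, adjusted p = 0.6135).

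**Figure D3:**
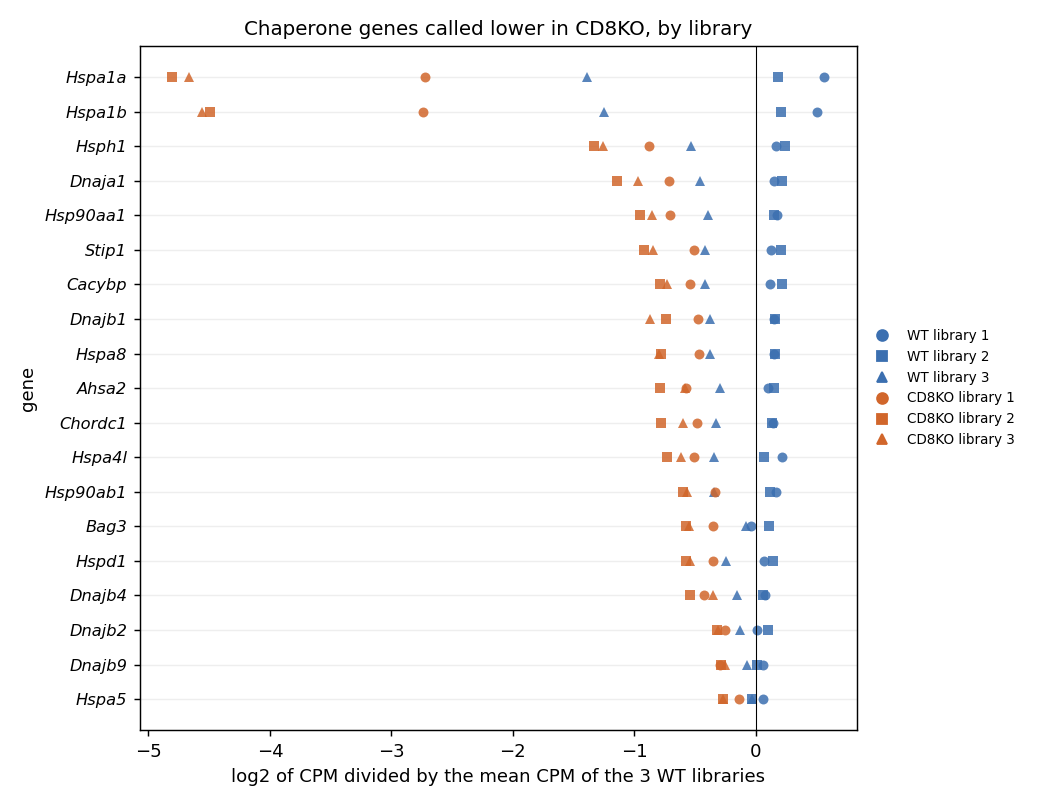
Log2 of each library's CPM over the mean of the 3 WT libraries for the 19 chaperone genes that fell, with WT in blue and CD8KO in orange. WT library 3 (blue triangle) sits lowest among WT for all 19 genes, and CD8KO library 1 (orange circle) sits highest among CD8KO for 17.

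Transcripts of several chemokines that activated NK cells release were lower in CD8KO. Of 21 tested genes for chemokines and cytokines made by NK cells, 5 fell and none rose, with a median log2 change of -0.12. The list's summed level overlapped between groups, at 3705, 4183 and 3623 CPM in WT and at 3722, 3640 and 3470 CPM in CD8KO. Ccl3 (chr11:83647844-83649355), which encodes the chemokine MIP-1 alpha, was at 261.4, 322.2 and 262.1 CPM in WT and at 147.5, 123.1 and 131 CPM in CD8KO. The log2 change was -1.07 ± 0.08 (adjusted p = 2.455e-06), a level 0.475 times that of WT. Its neighbour Ccl4 (chr11:83662584-83664683), which encodes MIP-1 beta, went from 132.5, 153.1 and 125.9 CPM to 82.24, 74.92 and 77.26 CPM (log2 change -0.81 ± 0.07, adjusted p = 1.092e-05). Every CD8KO library was below every WT library for both. Both were also called with CD8KO library 1 alone, at -0.94 and -0.74.

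Ifng, the interferon that activates macrophages, was at 124.1, 118.9 and 113.5 CPM in WT and at 89.81, 93.06 and 83.31 CPM in CD8KO (log2 change -0.42 ± 0.06, adjusted p = 0.001111). The groups did not overlap, and the call held in all 6 fits that left out 1 library. Gm49751, a gene model that lies inside Ifng on the same strand, fell by 0.88 ± 0.09, and its reads cannot be separated from those of Ifng. Xcl1, the chemokine that draws cross-presenting dendritic cells, fell by 0.31 ± 0.06 (adjusted p = 0.02453). Gm20743, a transcript annotated on the opposite strand across Xcl1, went from 51.81, 44.99 and 49.88 CPM to 23.35, 20.99 and 22.35 CPM (log2 change -1.14 ± 0.07, adjusted p = 2.528e-07). Tnfsf14, the ligand LIGHT, fell by 0.37 ± 0.08 (adjusted p = 0.02798). Xcl1 and Tnfsf14 each lost their call without WT library 1, without CD8KO library 2 and without CD8KO library 3.

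Other products of NK cells were not called. Ccl5, the most abundant chemokine transcript here in CPM, was at 2396, 2795 and 2374 CPM in WT and at 2606, 2591 and 2465 CPM in CD8KO (log2 change 0.02 ± 0.05, adjusted p = 0.9315). Tnf, at 4.584 to 6.423 CPM over the 6 libraries, was not called (log2 change -0.29 ± 0.14, adjusted p = 0.3837). Ltb, which encodes lymphotoxin beta, had a log2 change of 0.30 ± 0.07 and was not called (adjusted p = 0.06632). Ccl5, Tnf and Ltb were chosen for mention after their values were seen.

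Immediate-early genes, which are switched on within minutes of a receptor signal, held 7 of 35 that fell and none that rose (median -0.14). Their summed level overlapped between groups, at 6336, 6574 and 6937 CPM in WT and at 6511, 6618 and 6017 CPM in CD8KO. Nr4a1 and Nr4a2, nuclear receptors induced by antigen or activating receptor signals, both fell. Nr4a1 went from 46.75, 46.78 and 52.92 CPM to 34.2, 34.71 and 31.63 CPM (log2 change -0.54 ± 0.07, adjusted p = 0.0005334). Nr4a2 went from 26.96, 27.23 and 33.88 CPM to 16.74, 18.49 and 20.87 CPM (log2 change -0.65 ± 0.10, adjusted p = 0.003268). Dusp2, a phosphatase that switches off MAP kinases, fell by 0.49 ± 0.07 (adjusted p = 0.001948). These 3 genes separated the groups and kept their calls in all 6 fits that left out 1 library.

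Rgs1 and Rgs2, which damp signals from G-protein-coupled receptors, fell by 0.30 ± 0.07 and 0.30 ± 0.06. Egr1, the zinc-finger factor that follows MAP kinase activity, fell by 0.47 ± 0.10, and the stress gene Gadd45b by 0.37 ± 0.08. Of the 6 fits that left out 1 library, Egr1 and Gadd45b were called in 1 each, Rgs1 in 2 and Rgs2 in 5. The count of 7 fell to 3 without CD8KO library 2. Fosb, a member chosen for mention after its values were seen, was at 46.94, 43.74 and 132.3 CPM in WT and at 188.3, 170.2 and 152.1 CPM in CD8KO, and was not called (log2 change 1.20 ± 0.29, adjusted p = 0.06119). WT library 3 was nearer to CD8KO than to the other WT libraries for Fosb. Fos, also chosen after its values were seen, had a log2 change of 0.33 ± 0.12 and was not called (adjusted p = 0.2587).

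Ly49 receptors, which are encoded by the Klra genes in the NK gene complex of chromosome 6 and mostly bind MHC class I, held several members that were lower in CD8KO. Of 13 tested, 5 fell, none rose and 9 had a log2 change below 0 (median -0.30). Klra8 (chr6:130115226-130129898), which encodes the activating receptor Ly49H, was at 851.4, 816 and 882.9 CPM in WT and at 563.9, 442.4 and 551.4 CPM in CD8KO. It fell by 0.71 ± 0.07 (adjusted p = 7.733e-05), a level 0.611 times that of WT, with no overlap between groups. Klra4, which encodes the activating receptor Ly49D, went from 567.8, 613.6 and 583.4 CPM to 447.2, 390.7 and 457.1 CPM (log2 change -0.45 ± 0.06, adjusted p = 0.0007854). Klra9, which encodes the inhibitory receptor Ly49I, went from 429.1, 458.6 and 430 CPM to 346.1, 311.6 and 327.7 CPM (log2 change -0.42 ± 0.05, adjusted p = 0.000413).

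Klra10 and the pseudogene Klra13-ps fell by 0.55 ± 0.11 and 0.48 ± 0.08. The members differed among themselves. Klra3, which encodes the inhibitory Ly49C, was at 163.4, 181.5 and 187.1 CPM in WT and at 169.6, 156.7 and 180.3 CPM in CD8KO and was not called (log2 change -0.07 ± 0.06, adjusted p = 0.6995). Klra7, which encodes the inhibitory Ly49G, was at 339.6, 370.6 and 358.8 CPM in WT and at 351.9, 332.1 and 386.9 CPM in CD8KO (log2 change 0.00 ± 0.06, adjusted p = 0.9917). Klra genes are close paralogs, and the counting could divide reads between them. The family's summed level separated the groups, at 3874, 3902 and 4180 CPM in WT and at 3033, 2692 and 3248 CPM in CD8KO. The count of 5 fell to 3 without CD8KO library 2. Klra8 and Klra4 were among the 3 members called with CD8KO library 1 alone, at -0.59 and -0.40. In bulk RNA, a smaller share of cells that carry a receptor and less RNA per cell cannot be told apart.

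The other lectin receptors of the same complex were not called. Among 17 tested CD94, NKG2 and NKR-P1 lectins, the log2 changes ran from -0.19 to 0.20 (median -0.07) and 6 had an unadjusted p under 0.05. Klrb1a and Klrc2 had the smallest adjusted p, 0.09696 and 0.2198. Klrk1, the activating receptor NKG2D, was at 1498, 1446 and 1451 CPM in WT and at 1403, 1294 and 1396 CPM in CD8KO (log2 change -0.10, adjusted p = 0.3085). None of 19 inhibitory checkpoint genes was called, with 5 at an unadjusted p under 0.05. Over all 16619 genes tested, 2140 had such a p.

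**Figure D4:**
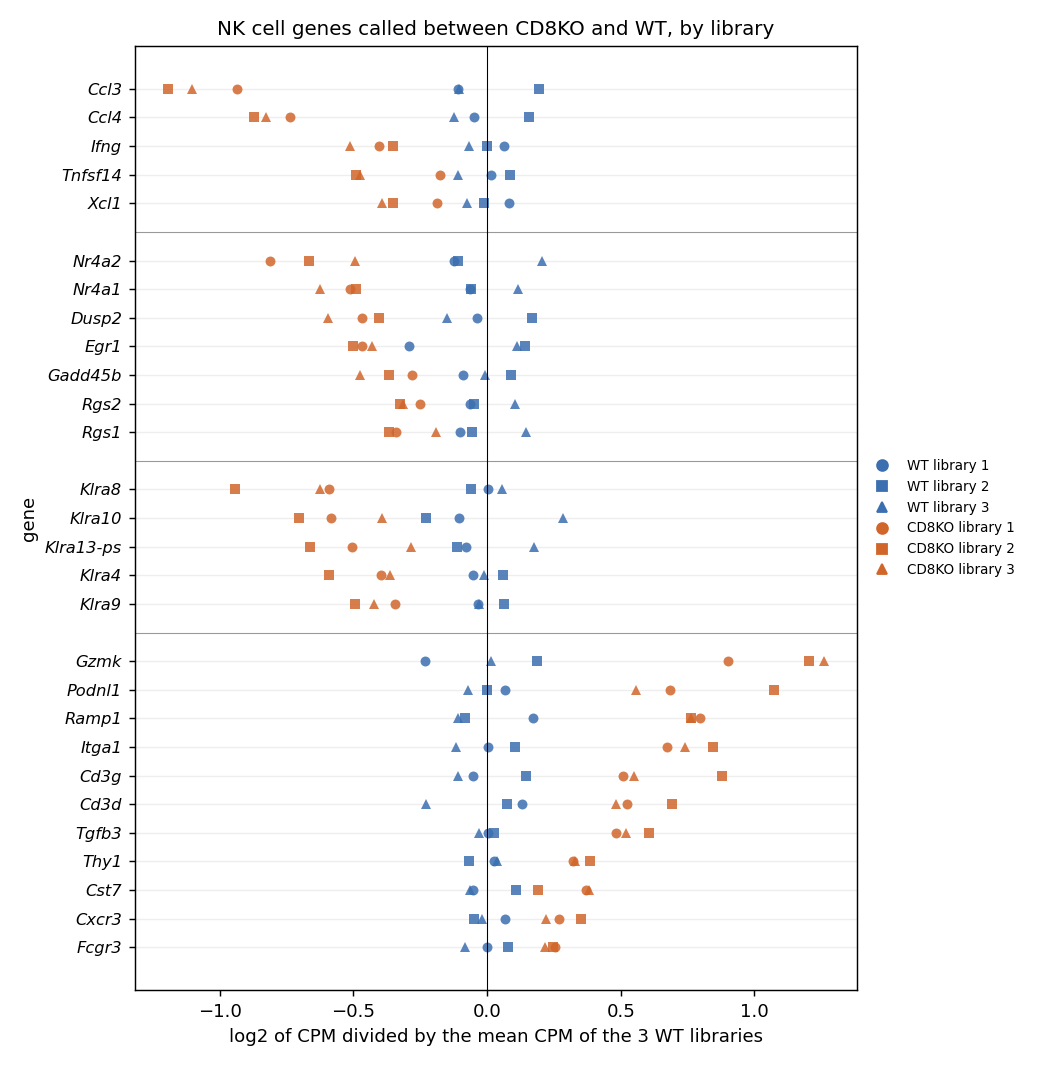
Log2 of each library's CPM over the mean of the 3 WT libraries for NK cell genes that were called, with WT in blue and CD8KO in orange. The blocks from top to bottom are chemokines and cytokines, immediate-early genes, Ly49 receptors and genes that rose. CD8KO libraries lie left of all WT libraries in the first 3 blocks and right of them in the last. Only called genes are drawn, and 133 of the 135 called lower and 82 of the 83 called higher separated the groups in this way.

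The killing machinery was mostly not called. Of 27 granule and killing genes, 2 rose and none fell. Gzmk, a granzyme with trypsin-like activity that is found in less mature NK cells, went from 3.23, 4.319 and 3.83 CPM to 7.094, 8.745 and 9.084 CPM (log2 change 1.13 ± 0.15, adjusted p = 0.001001). Every CD8KO library was above every WT library. Cst7, the cystatin that restrains granule proteases, rose by 0.32 ± 0.06 (adjusted p = 0.02244), a call lost without WT library 1, WT library 3, CD8KO library 1 or CD8KO library 3. Prf1, which encodes perforin, was at 1347, 1510 and 1297 CPM in WT and at 1416, 1307 and 1294 CPM in CD8KO (adjusted p = 0.7733). Gzmb, a granzyme named after its values were seen, had a log2 change of -0.26 ± 0.07 and was not called (adjusted p = 0.1083).

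Genes of maturation stages were called in small numbers. Among 24 genes of terminal NK maturation, 2 fell and none rose. Of these 24, 16 had a log2 change below 0 and 6 an unadjusted p under 0.05, against 2140 of all 16619 genes tested. Ly6c2, a surface antigen of mature NK cells and of monocytes, fell by 0.36 ± 0.08 (adjusted p = 0.03341), and Kcnj8, a potassium channel gene, by 0.34 ± 0.08 (adjusted p = 0.03952). Both lost their call without any 1 of WT library 1, WT library 2, CD8KO library 2 or CD8KO library 3. Klrg1, Itgam and S1pr5, which mark the last stages of NK maturation, had log2 changes of 0.08 ± 0.08, -0.03 ± 0.06 and -0.13 ± 0.06 and were not called. These 3 were chosen for mention after their values were seen.

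Among 25 genes of immature NK cells and progenitors, 2 rose and 1 fell, with a median log2 change of 0.12. Of these 25, 19 had a log2 change above 0 and 13 an unadjusted p under 0.05, against 2140 of all 16619 genes tested. Thy1, a surface glycoprotein of T cells, innate lymphoid cells and part of the NK cells, went from 311.5, 291.7 and 313.9 CPM to 381.6, 399.3 and 384.1 CPM (log2 change 0.35 ± 0.05, adjusted p = 0.001076). Cxcr3, the receptor for interferon-induced chemokines, went from 91.94, 84.77 and 86.64 CPM to 105.8, 112 and 102.3 CPM (log2 change 0.28 ± 0.06, adjusted p = 0.0187). Xcl1, described above, was the member that fell. The call for Cxcr3 was lost without CD8KO library 2. Cxcr3 lies at chrX:101731535-101734269. Gm4779, at chrX:101790053-101794423, rose by 4.12 ± 0.33 (adjusted p = 4.849e-06). Any link between these changes was not tested.

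The list of tissue-residence genes, drawn from liver-resident NK cells and type 1 innate lymphoid cells, held 4 of 31 that rose and 3 that fell. Itga1 (chr13:114953096-115101964), the collagen-binding integrin CD49a that marks liver-resident NK cells, went from 10.75, 11.54 and 9.899 CPM to 17.13, 19.26 and 17.94 CPM (log2 change 0.75 ± 0.09, adjusted p = 0.0005351). The groups did not overlap, and the level was 1.69 times that of WT. Podnl1, a leucine-rich matrix protein, went from 11.55, 11.02 and 10.47 CPM to 17.71, 23.16 and 16.21 CPM (log2 change 0.79 ± 0.12, adjusted p = 0.002642). Cd3g, a chain of the T cell receptor complex whose RNA is also found in NK cells, rose by 0.66 ± 0.11 (adjusted p = 0.005454). Cxcr3, described above, was the remaining member that rose. Cd3d, which is among the T cell markers and not in this list, rose by 0.57 ± 0.10 (adjusted p = 0.01345). Both Cd3 calls were lost without CD8KO library 2.

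Osbpl3, a lipid transfer protein of the same list, fell from 438.1, 426 and 419.4 CPM to 303.7, 301.3 and 333.4 CPM (log2 change -0.45 ± 0.05, adjusted p = 0.0001615). Rgs2 and Xcl1 were the other two members that fell. Cxcr6, the chemokine receptor of liver-resident NK cells, was at 2.647 to 4.496 CPM over the 6 libraries and was not called (adjusted p = 0.5155); it was chosen for mention after its values were seen. The count of 4 that rose fell to 2 without CD8KO library 2 and to 0 with CD8KO library 1 alone. Beyond Itga1 and Cxcr3, 1 of 40 trafficking receptors and integrins rose, namely Ramp1, a subunit of the CGRP receptor (log2 change 0.77 ± 0.14, adjusted p = 0.01255), a call lost without CD8KO library 2.

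The CD27 axis named in the title was examined through 31 tested genes of CD27 and the TNF receptor family. Cd27, a costimulatory receptor that is reduced as NK cells mature, was at 137.4, 124.5 and 146 CPM in WT and at 156.2, 146.3 and 132.6 CPM in CD8KO. The groups overlapped, and the log2 change was 0.09 ± 0.07 (adjusted p = 0.6157). Cd70, the ligand of CD27, had 0, 0 and 7 counts in WT and 4, 0 and 0 in CD8KO and was not tested. Tnfsf14, described above, was the member of this list that was called, and the log2 changes of the list had a median of 0.02.

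Regulators of NK identity and of cytokine responses gave no calls. Of 56 NK transcription factors none was called by edgeR, 7 had an unadjusted p under 0.05 and the median was 0.01. Zeb2, which drives terminal maturation, had the smallest adjusted p (log2 change -0.21 ± 0.06, adjusted p = 0.1203). Tbx21, the factor T-bet, had a log2 change of -0.10 ± 0.07 (adjusted p = 0.59). Of 42 genes for cytokine receptors and STAT signalling, none was called and 7 had an unadjusted p under 0.05, against 2140 of all 16619 genes tested. Within the TGF-beta pathway, 1 of 27 rose: Tgfb3, a TGF-beta ligand, went from 11.16, 11.34 and 10.92 CPM to 15.56, 16.96 and 15.99 CPM (log2 change 0.54 ± 0.09, adjusted p = 0.005006). The groups did not overlap, and the call was lost without CD8KO library 2.

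Of 62 interferon-stimulated genes, 3 rose and none fell, with a median log2 change of -0.01. Herc6, a ubiquitin ligase for ISG15, went from 34.1, 27.77 and 28.66 CPM to 43.33, 44.44 and 51.53 CPM (log2 change 0.62 ± 0.08, adjusted p = 0.001111). Its gene lies 13.71 Mb from Cd8a. Oas1a, a sensor of double-stranded RNA, and Ly6e, a membrane antigen, rose by 0.43 ± 0.10 and 0.24 ± 0.05, and lost their calls in 4 and 5 of the 6 fits that left out 1 library.

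Cell-cycle genes had 56 of 64 log2 changes above 0 and a median of 0.16, with 1 called. Spag5, a spindle protein, went from 3.375, 3.436 and 3.719 CPM to 5.476, 5.858 and 5.537 CPM (log2 change 0.68 ± 0.14, adjusted p = 0.02636), a call lost without WT library 1, WT library 2, CD8KO library 2 or CD8KO library 3. Mki67, the proliferation marker Ki-67, was at 34.54, 38.1 and 40.7 CPM in WT and at 40.03, 48.13 and 52.79 CPM in CD8KO and was not called (log2 change 0.32 ± 0.09, adjusted p = 0.1083). Mki67 was chosen after its values were seen. Among 42 p53 targets and apoptosis genes, 2 fell. Cdkn1a, the cell-cycle inhibitor p21, fell by 0.91 ± 0.18 (adjusted p = 0.01975), and Plk2, a polo-like kinase, by 1.31 ± 0.21, from 4.976, 4.375 and 5.162 CPM to 1.846, 2.587 and 1.402 CPM (adjusted p = 0.004373). The call for Cdkn1a was lost without WT library 1, WT library 2 or CD8KO library 2.

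General programmes gave no calls by edgeR. These were 28 glycolysis genes with 2 at an unadjusted p under 0.05, 78 oxidative phosphorylation genes with 7, 31 cholesterol genes with 7, 80 ribosomal protein genes with 1, 27 genes of MHC class I presentation with 3, and 14 tubulins with 1. The median log2 changes of these lists ran from -0.02 to 0.06. An unadjusted p under 0.05 was found for 2140 of all 16619 genes tested.

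**Figure D5:**
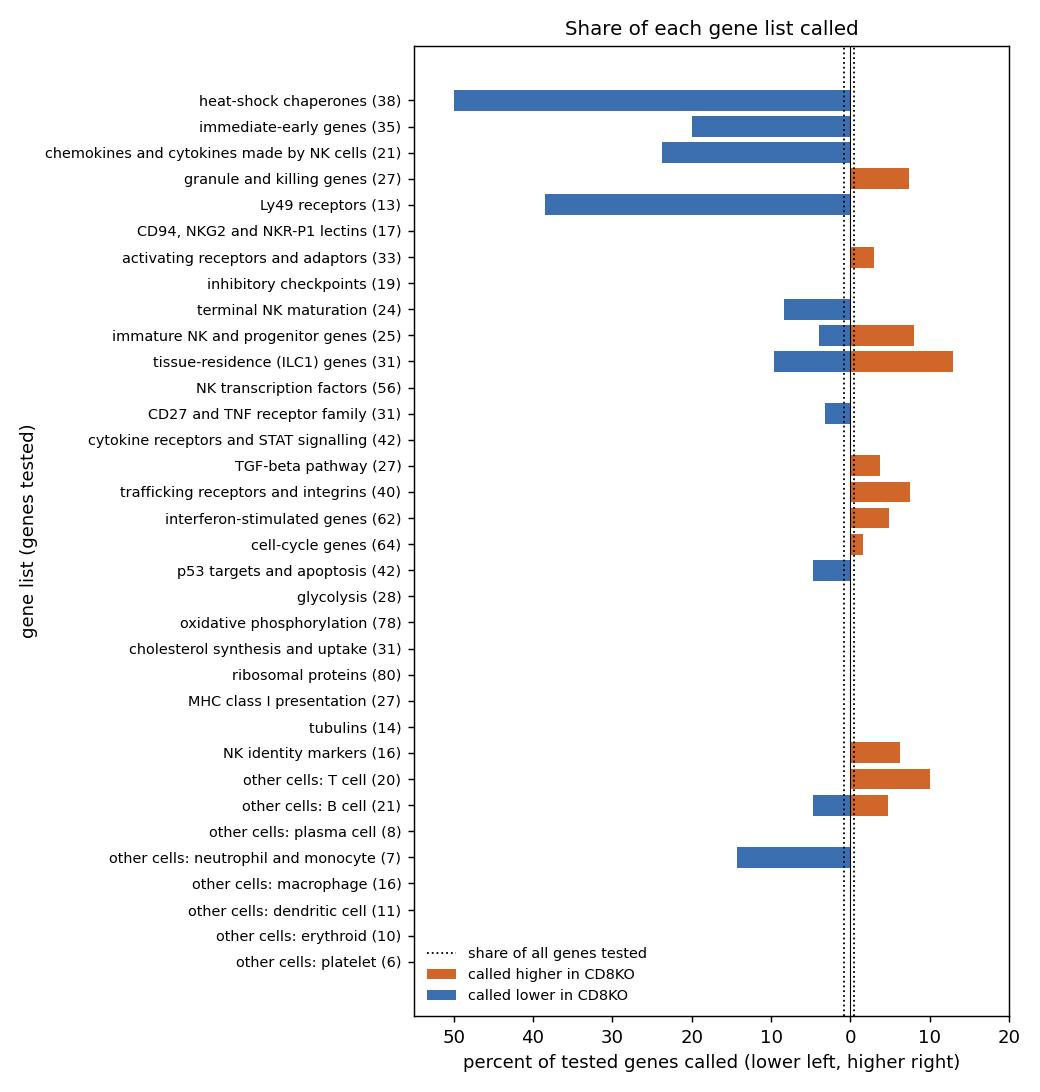
Percent of each gene list's tested genes that were called lower (blue, to the left) or higher (orange, to the right) in CD8KO, with the number tested in parentheses and dotted lines at the shares of all genes tested, 0.812% lower and 0.499% higher. Chaperones, Ly49 receptors, chemokines and cytokines, and immediate-early genes have the longest bars, all to the left. Lists with fewer than 5 tested genes are not drawn, nor is the sex-linked list, which had 2 of 10 called higher (20%).

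The share of genes called on an autosome ran from 0.388% on chromosome 19 to 2.84% on chromosome 6. On chromosome 6, which carries Cd8a, 25 of 880 genes were called (2.84%), against 1.23% on all other chromosomes. Within 20 Mb of Cd8a, Cd8a itself left out, 10 of 234 were called (4.27%), 5 higher and 5 lower. On the rest of chromosome 6, 14 of 645 were called (2.17%), all of them lower, among them the 5 Klra genes. The window held Pde1c, a calcium-dependent phosphodiesterase 14.8 Mb from Cd8a, which went from 8.482, 7.306 and 7.271 CPM to 0.9956, 1.485 and 1.471 CPM (log2 change -2.53 ± 0.18, adjusted p = 1.356e-06). Fkbp9, a prolyl isomerase, fell by 2.42 ± 0.38 (adjusted p = 0.00432). Kbtbd2, Vopp1 and Mat2a fell by 0.41, 0.39 and 0.34, while Sema4f, Herc6 and Nod1 rose by 0.80, 0.62 and 0.22. Mat2a, Sema4f and Nod1 lost their calls without WT library 1, without CD8KO library 2 and in further fits.

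The X chromosome had 11 of 490 genes called (2.24%), and 1 gene there had no counts in CD8KO. Apool (chrX:112311334-112372755), a cardiolipin-binding protein of the inner mitochondrial membrane, had 841, 717 and 547 counts in WT and 0 in each CD8KO library. Against a floor of 3 counts over the CD8KO group it was at least 599.9-fold lower. Away from the X chromosome, the noncoding gene 5830416I19Rik (chr5:64044978-64050228) had 38, 27 and 21 counts in WT and 0 in CD8KO. It was at least 24.51-fold lower against the same floor. Rell1, described below, lies on the same chromosome (chr5:63908897-63968897) and also fell.

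Mid1, a microtubule-associated ubiquitin ligase that spans the boundary of the pseudoautosomal region, went from 1.368, 1.711 and 2.22 CPM to 20.72, 16.71 and 24.14 CPM (log2 change 3.55 ± 0.17, adjusted p = 1.353e-08). Its Y-linked pseudogene copy Mid1-ps1 rose by 3.13 ± 0.35, and reads could be split between the copies. G530011O06Rik, annotated inside Mid1 on the opposite strand, rose by 3.49 ± 0.42. Mid1 and Apool did not follow the sex-linked order of the libraries: CD8KO library 1, with Xist in the WT range, was at 20.72 CPM for Mid1 and had no counts for Apool. The labels give the same strain for both groups.

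Among single genes outside the lists, Rab4a, a small GTPase of endosome recycling, rose from 1.222, 1.094 and 1.166 CPM to 5.455, 7.51 and 5.969 CPM (log2 change 2.44 ± 0.18, adjusted p = 2.455e-06). Kctd15, a BTB-domain protein, fell from 14.69, 17.3 and 15.39 CPM to 7.197, 6.091 and 7.215 CPM (log2 change -1.21 ± 0.11, adjusted p = 2.224e-05). Afdn, the junction protein afadin, fell by 0.56 ± 0.05 (adjusted p = 5.118e-05), and Rell1, a TNF receptor-like membrane protein, by 0.86 ± 0.09 (adjusted p = 0.0001452). Serpine2, a protease inhibitor, and Ciart, a repressor of the circadian clock, fell by 1.12 ± 0.18 and 1.13 ± 0.19. Tmem154, a membrane protein, rose by 0.70 ± 0.09 and Mgst2, a microsomal glutathione transferase, by 0.74 ± 0.13. The groups did not overlap for any of these genes, but all except Afdn met a naming rule that required this. Of these 8, only Mgst2 lost its call in a fit that left out 1 library, namely without WT library 1 or CD8KO library 2.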

How the data were processed

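The authors deposited 1 file of gene counts per library, with 54532 Ensembl identifiers. HISAT2 2.1.0 and the build GRCm38 are named in the submitters' processing notes. How reads were counted (tool, annotation, strand) is not given in the sources used here. GENCODE M21 gave symbols and coordinates for 54495 identifiers. Groups came from the cell type and genotype labels. The 6 cNK libraries were fitted alone with edgeR 4.0.16 in R 4.3.3 (TMM scaling, genes kept by filterByExpr at min.count 10 and min.total.count 15, 1 mean per group, quasi-likelihood test, Benjamini-Hochberg adjustment over all genes tested). The fit was also run on counts simulated from its own dispersions with independent libraries. Such counts cannot show whether the counts or libraries here are independent. Even numbers made up 61.9 to 64.5% of the counts from 1 to 20, so whether counts are independent is not known. A fit on halved counts was added after the data were seen, as was the fit with CD8KO library 1 alone. DESeq2 1.42.0 and limma 3.58.1 served as alternatives.

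Genes were named by rule: the 20 largest called rises and falls where groups did not overlap and log2 CPM averaged 1 or more, without predicted genes, pseudogenes and receptor segments; the 10 smallest p in each direction; up to 4 called members of each list per direction, or the 2 smallest p where none was called; called genes within 20 Mb of Cd8a; and CD8, sex-linked and NK identity genes. Not every gene so named is described, and genes described beyond this rule were chosen after their values were seen. The members, lists and tests were chosen with earlier results of these data known.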

Additional observations from a re-analysis of the deposited data

How the results depend on the processing

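Against 83 genes higher and 135 lower, the counts were 248 and 342 without a filter on low counts, 229 and 283 with DESeq2, 139 and 193 with limma voom and sample weights, and 16 and 24 with CD8KO library 1 alone. They stayed within 1.5 times with DESeq2's size factors, a stricter filter, autosomal genes only and halved counts. Leaving out 1 library gave 25 to 98 higher and 46 to 161 lower genes, with the lowest counts without CD8KO library 2 and without WT library 1. No gene called here was called in the opposite direction under any of these settings, and none of the 78 named genes that were called changed sign. Every setting refitted the same libraries or part of them, and the genes were chosen for their calls there. Neither result is thus an independent check of direction. DESeq2 shared 79 of the 83 and 130 of the 135 calls, and voom 81 and 132.

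With the replicate number as a replicate block the counts were 142 and 213, with all 83 and 135 among them. The labels number the libraries but do not say that a number marks a shared animal or day. The deviations of same-numbered libraries correlated at 0.007, -0.008 and 0.069, and those of differently numbered libraries at -0.108 to 0.103. With 3 libraries per group, these values cannot tell whether a number marks a shared animal or day.

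Low genes limit what could be seen: the median width of the 95% interval of a log2 change was 0.48, and wider where counts were few. For small changes in rarely expressed genes, no call means that none was detectable at this depth.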

Other observations

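Further called genes outside the lists, chosen after their values were seen, fell into small groups that are given here as values. Of the 6 fits that left out 1 library, Clk1, Gadd45g and Spred2 were called in all 6, Clk4, Gas5, Snhg12, Hes1 and Dusp6 in 3 and Rgs16 in 2. Clk1 and Clk4, kinases that phosphorylate splicing factors, fell by 0.34 ± 0.04 (adjusted p = 0.000872) and 0.29 ± 0.06 (adjusted p = 0.02207). Clk2 and Clk3 had log2 changes of -0.12 ± 0.05 and -0.16 ± 0.05 and were not called. Gas5 and Snhg12, host transcripts of small nucleolar RNAs, fell by 0.26 ± 0.05 and 0.45 ± 0.09. Snhg12 was at 16.09, 16.13 and 16.17 CPM in WT and at 12.09, 12.27 and 11.09 CPM in CD8KO. Gadd45g, Rgs16 and Hes1, which respond to receptor signals in lymphocytes, fell by 0.47 ± 0.07, 0.79 ± 0.16 and 0.51 ± 0.10. Dusp6 and Spred2, which restrain the ERK pathway, rose by 0.38 ± 0.07 and 0.47 ± 0.07, whereas Spry2 and Dusp5 had log2 changes of 0.05 ± 0.05 and 0.00 ± 0.06.

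Of the circadian genes looked at after Ciart was seen to fall, Bhlhe40 fell by 0.34 ± 0.05 and Tef by 0.24 ± 0.05, called in 6 and in 1 of the fits that left out 1 library. Per1, Per2, Per3, Dbp, Arntl, Clock, Cry1, Cry2 and Nr1d2 were not called, with log2 changes from -0.30 for Per3 to 0.20 for Dbp. P4ha1 and Plod2, hydroxylases of collagen-like chains, fell by 0.70 ± 0.11 and 0.50 ± 0.10, called in 5 and 4 of those fits. P4ha1 followed the order of libraries seen for the chaperones in WT, at 63.52, 61.42 and 42.2 CPM, with 35.63, 32.41 and 35.16 CPM in CD8KO. Dnaja4, a J-protein that was not in the chaperone list, fell by 0.59 ± 0.09, from 39.21, 42.1 and 34.27 CPM to 29.83, 23.48 and 23.57 CPM. Nr3c2, the mineralocorticoid receptor, went from 2.372, 2.426 and 2.424 CPM to 0.8089, 0.4673 and 0.8651 CPM (log2 change -1.76 ± 0.26, adjusted p = 0.002642).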
